A study of Mus musculus with 43 samples.

Results

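T cells carrying a metabolic CRISPR library were compared between the lungs and the primary tumour of mice with pancreatic cancer. Of the 43 samples of the series, 41 libraries carry values, and 12 of these were compared here, 6 from lung and 6 from primary tumour. They were chosen by their labels alone, as every library labelled Lungs_IgG, Lungs_PD1, Tumor_IgG or Tumor_PD1, with 3 biological replicates in each of the 4 groups. The cells in all 4 groups were CD90.1+ OT-I T cells, which are CD8+ T cells of Cas9 knock-in mice whose receptor recognizes ovalbumin. They had been transduced with a lentiviral sgRNA library, selected for CD90.1 and injected into the tail vein of mice with orthotopic tumours of KPC_OVA, a PDAC line that expresses ovalbumin. Treatment with anti-PD-1 or with the control antibody IgG began on the day of transfer, and the cells were sorted 7 days after adoptive transfer (ACT). A further 3 libraries of cells from the day of transfer, called T0, show the composition before ACT. The recipients were young adult Rosa26-Cas9 mice, used without selection by sex, per the study's methods. The number of mice pooled into a library is not given in the labels used here. Lung stands among the metastatic sites of this model, but the sorted cells were selected by the CD90.1 mark and not by their contact with tumour cells. The readout is sgRNA abundance in genomic DNA and holds no gene expression, so the identity of organ and cells could not be checked against markers.

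In such a screen each T cell carries a guide that cuts 1 gene, and the guide serves as a barcode for the descendants of that cell. A guide becomes rare in an organ when its carriers survive, divide or arrive less well there, and it becomes common when they do so better. A fall in number and a failure to arrive cannot be told apart in this readout. After transfer into the blood, activated CD8+ T cells lodge in the lung, spleen and liver as well as in the tumour, and their surface glycans, lipid supply and mitochondrial respiration are among the properties that bear on where they lodge and how far they expand. The comparison asks which gene losses weigh differently on T cells recovered from the lungs and on those recovered from the primary tumour.

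The library holds 10640 sgRNAs. Each of 2078 genes is the target of 5 of them, and 250 have no target. The level of a gene in a library is the mean of log2(signal + 1) over its 5 sgRNAs minus the same mean over the nontargeting sgRNAs. A level of 0 is therefore the level of a guide without a target. A negative difference means that guides against the gene were rarer in lung than in primary tumour, relative to the nontargeting guides of the same library. All differences below are on this log2 scale, and folds are derived from it, which understates changes of guides with low signal. By the study's methods the signal was corrected for batch effects between organs, and organ is also what is compared. Lung and tumour libraries of the same replicate number nonetheless share identical lowest values for some guides, those of Rps13 among them. Which batch the correction used was not tested. What that correction took from or added to a lung minus tumour difference cannot be told apart in these values, and this bears on every difference below.

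The lung libraries were far sparser than the tumour libraries. Many guides of a replicate number carry 1 identical lowest value in several libraries, and whether it stands for a guide without reads is not given in the sources used here. This shared lowest value held 42.6%, 28.0% and 11.3% of sgRNAs in the 3 lung libraries under IgG and 17.8%, 30.2% and 10.5% under anti-PD-1. In the 6 tumour libraries it held between 2.78% and 4.24%, and in T0 at most 0.0188%. The mean was 23.4% ± 12.5 (SD, n = 6) in lung and 3.52% ± 0.641 (SD, n = 6) in tumour, with no overlap between organs. An exact two-sided permutation test over the 12 libraries gave p = 0.00216, the smallest this design allows, and 0.00289 after adjustment over the 4 library measures tested. The nontargeting guides, which should be alike, also scattered more widely in lung. Their SD within a library was 2.62 to 3.68 log2 units in lung, 1.43 to 1.65 in tumour and 1.08 to 1.11 in T0 (exact permutation p = 0.00216 for lung against tumour, adjusted p = 0.00289). The most abundant 1% of sgRNAs held 10.6% to 16.6% of the signal in lung and 6.40% to 10.5% in tumour (exact permutation p = 0.00216, adjusted p = 0.00289). The effective number of sgRNAs, an index that falls when few guides dominate, was 1492 to 3011 in lung and 1023 to 5200 in tumour, and the difference did not pass the test (exact permutation p = 0.0519, adjusted p = 0.0519). The lowest value among the tumour libraries came from Tumor_IgG replicate 3. The read depth is not part of the table. Fewer cells recovered, fewer cells sequenced and a true loss of guides therefore cannot be told apart.

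**Figure D1:**
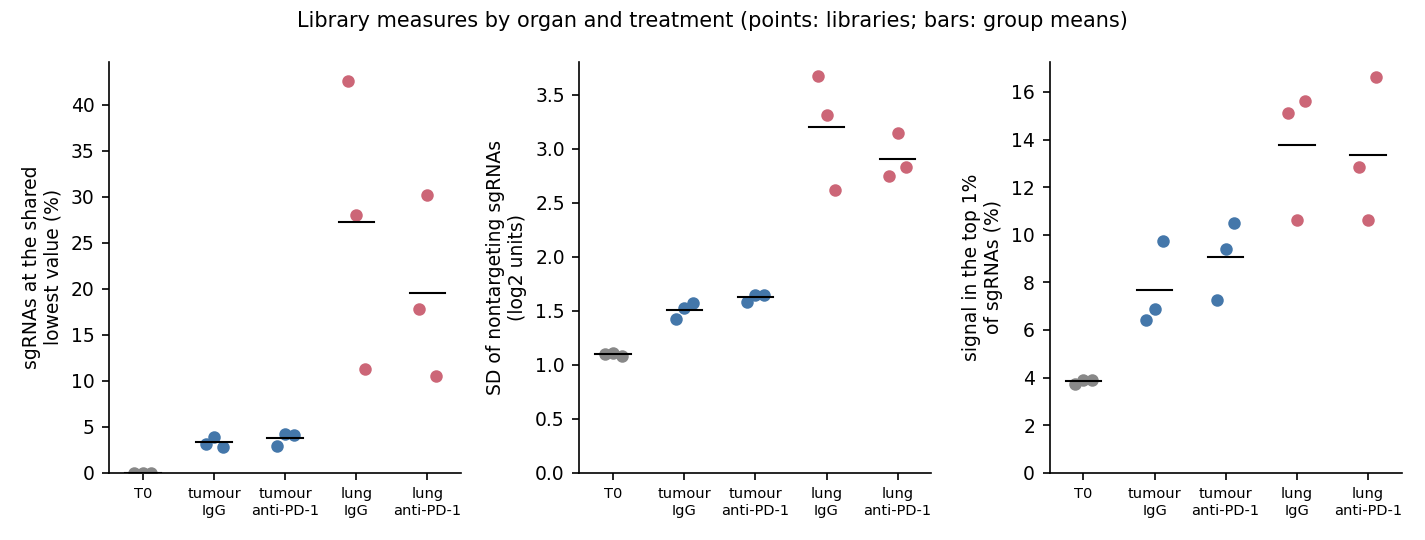
The share of sgRNAs at the shared lowest value (%), the SD of nontargeting sgRNAs (log2 units) and the share of the signal in the top 1% of sgRNAs (%) are plotted on 3 vertical axes, with 1 point per library and a bar at the mean of each group of 3 libraries. The first lies between 10.5% and 42.6% in lung and between 2.78% and 4.24% in primary tumour.

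No gene passed the test. At an adjusted p of at most 0.05, limma called 0 of 2078 genes lower in lung (0%) and 0 higher (0%). At an unadjusted p under 0.05, 82 genes lay lower (3.95% of those tested) and 91 higher (4.38%), and the smallest adjusted p was 0.175 among the lower and 0.340 among the higher genes. This fit has no term for the replicate number. A fit with a replicate block within treatment, chosen after seeing the data, called 3 genes lower and 0 higher. The differences of all genes ran from -2.19 to 1.75, with a median of 0.01 and an SD of 0.580. Guides without a target gave nearly the same spread. When the 250 nontargeting sgRNAs were taken as 50 sets of 5 in the order of the table, their differences ran from -1.29 to 1.10 with an SD of 0.541. The 95% interval of a gene's difference, not adjusted for the number of genes, reached a median of 1.0 to either side. A difference of less than about 2-fold thus could not be resolved for a typical gene even before adjustment. A call after adjustment needed more, since even the gene at -2.19 was not called. Lung libraries varied more. The SD between libraries of 1 treatment had a median over genes of 1.07 in lung and 0.40 in tumour, and it was larger in lung for 1955 of 2078 genes. Across genes, pairs of tumour libraries correlated at 0.874 to 0.940 and pairs of lung libraries at 0.593 to 0.743. Pairs of a lung and a tumour library correlated at 0.679 to 0.855, with a median of 0.783 against 0.674 for the lung pairs.

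**Figure D2:**
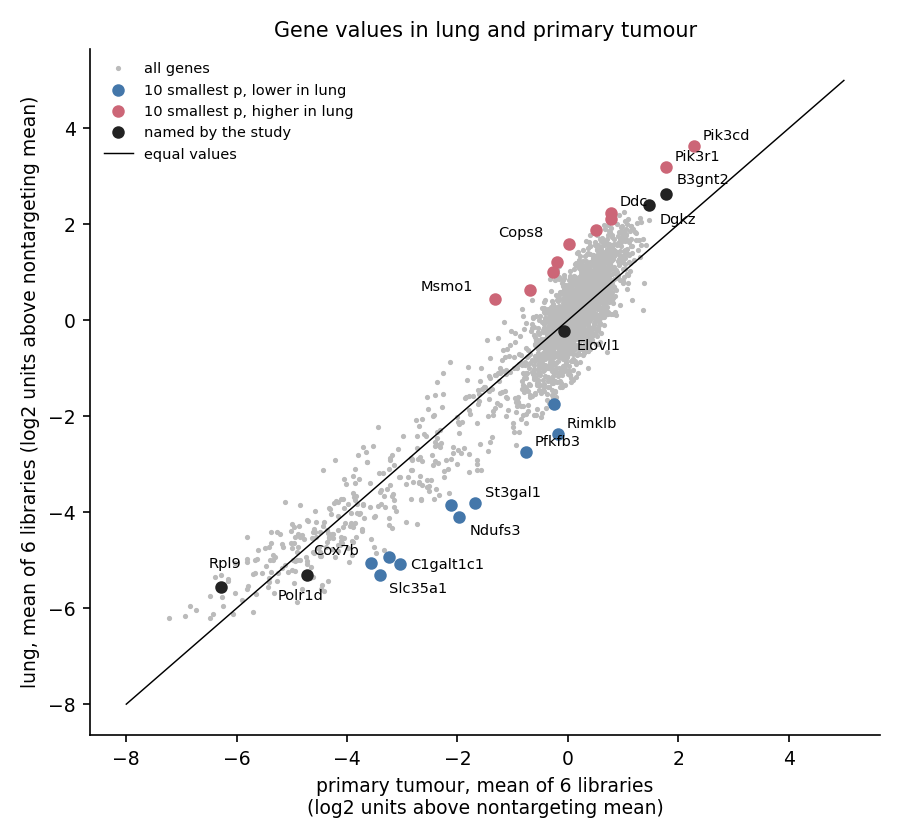
The mean level of each gene in lung (vertical axis) is plotted against its level in primary tumour (horizontal axis), in log2 units relative to nontargeting sgRNAs, with each point standing for 1 gene, coloured points for the named genes and a line where both organs are equal. The differences run from -2.19 to 1.75 with a median of 0.01.

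The size of a gene's difference moved with the sparseness of the lung libraries. More of a gene's sgRNA values stood at the shared lowest value in lung than in tumour for 2058 of 2078 genes, and fewer for 0. All 5 sgRNAs stood at it in at least 1 lung library for 189 genes and in at least 1 tumour library for 7 genes. Across genes, the difference correlated with the excess of such values in lung at a Pearson r of -0.60 (Spearman -0.65, 2078 genes that share the same 12 libraries). Such values enter the gene means themselves, so a negative correlation is partly built in and is no separate evidence. The difference also correlated with the level before transfer, at a Pearson r of 0.30 (Spearman 0.30). Among the fifth of genes with the lowest T0 level the median difference was -0.20, with 34 genes lower and 12 higher at an unadjusted p under 0.05. Among the fifth with the highest T0 level the median was 0.33, with 4 lower and 33 higher. Genes that started with few cells thus lay lower in lung more often, and genes that started with many lay higher. Beyond the settings given below, the part of sparseness in single gene differences was not tested.

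The genes with the smallest p on the lower side included 3 that act on sialylated core 1 O-glycans, Slc35a1, C1galt1c1 and St3gal1, which were grouped after their values were seen. These glycans decorate serine and threonine residues of T cell surface proteins such as CD43, and the core is made in the Golgi by adding galactose to GalNAc and then capping it with sialic acid. Slc35a1, the carrier that brings CMP-sialic acid into the Golgi, had the smallest p of all genes. Its level at T0 was -0.10. In the primary tumour it was -2.91, -2.42 and -2.56 under IgG and -3.50, -4.31 and -4.69 under anti-PD-1. In lung it was -3.69, -4.45 and -4.65 under IgG and -6.40, -6.30 and -6.32 under anti-PD-1. Within each treatment the 3 lung libraries lay below the 3 tumour libraries, whereas over both treatments the ranges overlapped. Such separation within each treatment was seen for 8 genes on the lower side (0.385%), Polr3d, Hagh and C1galt1 among them, and for 22 on the higher side (1.06%). The difference was -1.90 ± 0.40 (SE; 95% interval -2.74 to -1.07), a 3.74-fold lower abundance in lung, and it did not pass the test (limma adjusted p = 0.175, unadjusted p = 0.000104). All 5 sgRNAs had a negative difference, which is no separate support, since the gene was picked by their mean. The same holds for the signs of sgRNAs given for other genes below. Of the 30 values of Slc35a1 in lung, 25 stood at the shared lowest value, against 3 of 30 in tumour. The lung values of Slc35a1 thus lie close to the bottom of the measurable range.

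C1galt1c1 encodes Cosmc, the chaperone without which the core 1 galactosyltransferase does not fold. Its level was -3.68, -3.05 and -2.27 (lowest, median, highest) in tumour and -6.08, -5.32 and -3.29 in lung, from -0.38 at T0. Of the 6 lung libraries, 5 lay below every tumour library. The difference was -2.05 ± 0.45 (SE; limma adjusted p = 0.175), with all 5 sgRNAs negative and 22 of 30 lung values at the shared lowest value against 1 in tumour. St3gal1 encodes the sialyltransferase that caps core 1 with sialic acid. It ran from -2.81 to -0.65 (median -1.73) in tumour and from -5.69 to -0.95 (median -4.31) in lung, with a difference of -2.12 ± 0.62 (SE; adjusted p = 0.472) and all 5 sgRNAs negative. Its lung libraries disagreed more, since the difference was -0.44 within replicate number 1 and -3.83 within replicate number 2.

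Other steps of the pathway, named after their values were seen, had negative differences as well, and none passed the test. C1galt1, the core 1 galactosyltransferase itself, differed by -1.27 ± 0.45 (SE; adjusted p = 0.522), and within each treatment its lung libraries also lay below its tumour libraries. Nans, which makes sialic acid 9-phosphate, differed by -1.55 ± 0.52 (adjusted p = 0.472). Gne, which carries out the first steps of sialic acid synthesis, differed by -1.08 ± 0.46 (adjusted p = 0.547) from a tumour median that was already -4.45. Cmas, which activates sialic acid to CMP-sialic acid, differed by only -0.36 (adjusted p = 0.865), with 3 of its 5 sgRNAs higher in lung, and Nanp, the phosphatase of the pathway, by -0.72 (adjusted p = 0.756). The steps before and after Cmas thus had larger negative differences than Cmas itself, though its interval of -1.33 to 0.61 overlaps theirs. Pgm3 and Uap1, which make UDP-GlcNAc, the starting sugar for sialic acid, differed by -1.45 (adjusted p = 0.481) and -1.29 (adjusted p = 0.512).

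Most members of the wider families lay nearer to 0. Of 21 genes for sialic acid supply and sialyltransferases, a list drawn up after values were seen, 4 had an unadjusted p under 0.05 on the lower side, beside 3.95% of all genes, and 0 on the higher side. The median difference was -0.25, beside 0.01 over all genes. Of 24 genes for the cores of mucin-type O-glycans, also listed after values were seen, 2 lay lower and 0 higher at that p. Their median was 0.02, and those 2 were C1galt1 and C1galt1c1. Of 8 genes for UDP-GlcNAc synthesis, likewise listed after values were seen, 2 lay lower and 0 higher (median -0.34). As the values were known, the counts of these 3 lists are no separate support. The list of 24 genes for N-glycan trimming and branching, which also holds the sialic acid genes Slc35a1, Nans and Gne, had 4 lower and 1 higher at that p (median -0.34), and Fut8, which adds the core fucose, was the fourth on the lower side at -1.17. A few genes at the lower end thus stood within families whose medians were between -0.34 and 0.02.

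Set beside the other organs of the screen, the levels of C1galt1c1 and C1galt1 were low in lung and spleen and higher in liver. C1galt1c1 had a mean level of -5.09 in lung, -4.36 in spleen, -3.87 in peritoneal metastases, -3.04 in primary tumour and -0.41 in liver. Its 3 liver libraries ran from -2.26 to 1.91. C1galt1 had -2.90 in lung, -2.92 in spleen, -2.22 in peritoneal metastases, -1.64 in primary tumour and 0.84 in liver. St3gal1 had -3.81 in lung, -3.32 in spleen and -0.98 in liver. Nans was lower in spleen (-3.72) than in lung (-3.12), with -0.77 in liver. Gne had -5.43 in lung, -4.35 in primary tumour and -4.08 in liver. Slc35a1 had -5.30 in lung, -4.99 in spleen, -4.65 in peritoneal metastases, -3.54 in liver and -3.40 in primary tumour. Primary tumour and liver thus lay close together for Slc35a1 but not for the core 1 enzymes. These are means of 6 libraries in lung, spleen and tumour, of 5 in peritoneal metastases and of 3 in liver, and the order was not tested. Liver and peritoneal metastases hold IgG and anti-PD-1 libraries in unequal number, while tumour levels of Slc35a1 were lower under anti-PD-1, as given above. The 2 libraries of the series without values belong to peritoneal metastases and liver.

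**Figure D3:**
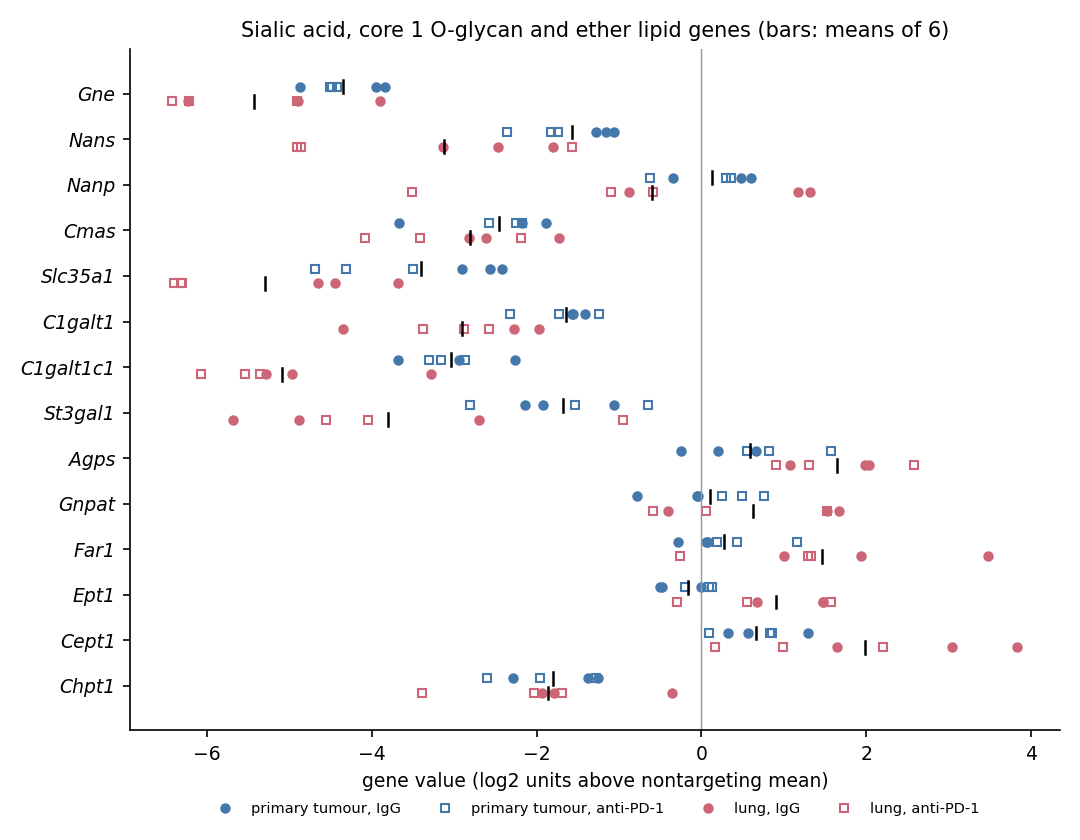
The levels of genes for sialylated core 1 O-glycans and for ether lipids are plotted on the horizontal axis in log2 units relative to the nontargeting mean, with 1 point per library (filled circles for IgG, open squares for anti-PD-1) and a bar at the mean of 6 libraries of an organ. Slc35a1 lies between -6.40 and -3.69 in lung and between -4.69 and -2.42 in primary tumour, and Agps lies between 0.90 and 2.58 in lung and between -0.24 and 1.57 in primary tumour.

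The remaining genes at the lower end belong to separate parts of metabolism. Rimklb, a synthetase that joins glutamate to N-acetylaspartate or citrate, had the largest negative difference of all genes. It was -0.84, -0.20 and 1.0 (lowest, median, highest) in tumour and -4.58, -2.32 and -0.41 in lung. The difference was -2.19 ± 0.53 (SE; limma adjusted p = 0.288), with all 5 sgRNAs negative and 12 of 30 lung values at the shared lowest value against 0 in tumour. In the tumour its guides were about as abundant as nontargeting ones, unlike those of Slc35a1. Pfkfb3, which makes the fructose 2,6-bisphosphate that drives glycolysis, was -1.19, -0.87 and 0.01 in tumour and -4.58, -3.09 and -0.62 in lung (difference -1.99 ± 0.53, adjusted p = 0.340). Hagh, a glyoxalase that removes methylglyoxal, was the 1 gene of 2078 (0.0481%) whose 6 lung libraries all lay below all 6 tumour libraries. It ran from -3.60 to -0.81 in lung and from -0.70 to 0.45 in tumour (difference -1.48 ± 0.46, adjusted p = 0.472). Polr3d, a subunit of RNA polymerase III, differed by -1.72 ± 0.52 (adjusted p = 0.472), and all 6 of its lung libraries lay below the tumour median.

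Subunits of the respiratory chain supplied 3 of the 10 lower genes with the smallest p, while the complexes as a whole had medians between -0.61 and -0.16. Ndufs3, a core subunit of complex I, was -2.64, -1.92 and -1.35 (lowest, median, highest) in tumour and -5.80, -4.47 and -1.87 in lung. Its difference was -2.12 ± 0.54 (SE; adjusted p = 0.340), with 19 of 30 lung values at the shared lowest value against 0 in tumour. Cox7b, a small subunit of complex IV, differed by -1.68 ± 0.45 (adjusted p = 0.340) and Ndufc2, an accessory subunit of complex I, by -1.50 ± 0.45 (adjusted p = 0.472). Of 45 genes of complex I, 2 lay lower and 2 higher at an unadjusted p under 0.05, beside 3.95% and 4.38% of all genes. The median difference was -0.16. Ndufb8 (1.27) was on the higher side, so that subunits of 1 complex stood at both ends. Of 36 genes of complexes III and IV, 3 lay lower and 0 higher (median -0.16), and of 17 genes of the ATP synthase 1 lay lower and 1 higher (median -0.17). Of the 4 genes of complex II, 1 lay lower, Sdha at -1.07, and 0 higher (median -0.61). The median level of each of these groups lay below that of nontargeting guides in both organs, with 41.3% of complex I values at the shared lowest value in lung and 8.67% in tumour.

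**Figure D4:**
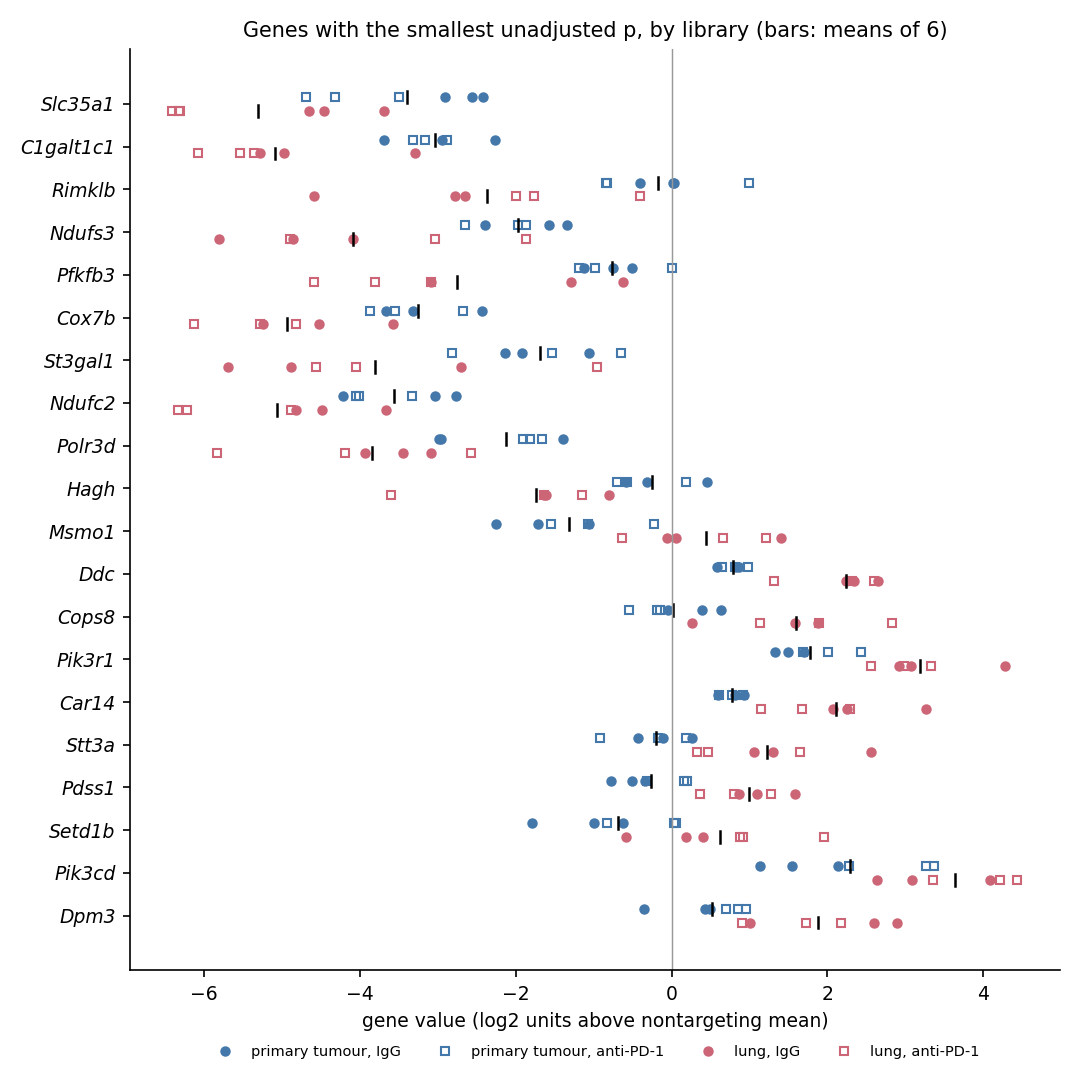
The levels of the 10 genes with the smallest unadjusted p in each direction are plotted on the horizontal axis in log2 units relative to the nontargeting mean, with 1 point per library (filled circles for IgG, open squares for anti-PD-1) and a bar at the mean of 6 libraries. The lung points of the upper 10 genes spread further to the left than the tumour points, as for Rimklb, which reaches -4.58 in lung and -0.84 in primary tumour.

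At the upper end stood Msmo1, a methylsterol oxidase of cholesterol synthesis. Its level was -2.25, -1.31 and -0.23 (lowest, median, highest) in tumour and -0.64, 0.36 and 1.4 in lung, from 0.11 at T0. The guides were thus below the nontargeting level in every tumour library and near it in lung, and 5 of 6 lung libraries lay above every tumour library. The difference was 1.75 ± 0.47 (SE; 95% interval 0.79 to 2.71), a 3.36-fold higher abundance in lung with all 5 sgRNAs positive, and it did not pass the test (limma adjusted p = 0.340). Only 3 of 30 lung values and 1 of 30 tumour values stood at the shared lowest value, but the difference was 0.51 with the values as deposited. Pdss1, which makes the isoprenoid tail of ubiquinone, lay higher in all 6 lung libraries (0.36 to 1.58) than in all 6 tumour libraries (-0.78 to 0.20), with a difference of 1.26 ± 0.40 (adjusted p = 0.472). That difference was 0.36 with the nontargeting median as centre and 0.019 with the values as deposited. Of 29 genes of the mevalonate and cholesterol list, 4 lay higher and 1 lower at an unadjusted p under 0.05. The shares over all genes were 4.38% and 3.95%, and the median difference of the list was 0.30. The others on the higher side were Pmvk (1.35) and Hsd17b7 (1.24), and the lower one was Idi1 (-0.93).

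Ether lipid synthesis had the highest median of the 39 lists. These lipids, among them the plasmalogens, carry a fatty alcohol in an ether bond, which is formed in the peroxisome. The median difference of the 6 genes was 1.06, beside 0.01 over all genes, and 4 of the 6 had an unadjusted p under 0.05 on the higher side, beside 4.38% of all genes. Agps, which makes the ether bond, was -0.24, 0.61 and 1.57 (lowest, median, highest) in tumour and 0.90, 1.64 and 2.58 in lung (difference 1.05, adjusted p = 0.547). Far1, which supplies the fatty alcohol, differed by 1.19, and Cept1 and Ept1, which attach the head group, by 1.32 and 1.07, each with an adjusted p of 0.547. Gnpat, which starts the pathway, differed by 0.53 (adjusted p = 0.818), and Chpt1, the choline phosphotransferase, by -0.07 (adjusted p = 0.977). The list median was 1.51 under IgG and 0.36 under anti-PD-1, and the difference between treatments was not tested for the list. Few values of these genes stood at the shared lowest value, 10% in lung and 2.78% in tumour. The centre moved all the same, since the nontargeting mean differed by -1.24 log2 units between lung and tumour. Over both treatments the list median was 0.21 with shared lowest values left out and -0.18 with the values as deposited.

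Guides against the PI3K delta subunits lay above the nontargeting level in every tumour library, and their lung levels were higher without passing the test. PI3K delta is the main class I PI3-kinase of lymphocytes, with Pik3cd encoding its catalytic subunit p110 delta and Pik3r1 the regulatory subunit p85 alpha. Pik3r1 was 1.33, 1.70 and 2.43 (lowest, median, highest) in tumour and 2.56, 3.03 and 4.28 in lung, from 0.40 at T0. All 6 lung libraries lay above all 6 tumour libraries. The difference was 1.41 ± 0.42 (SE; 95% interval 0.54 to 2.29), with all 5 sgRNAs positive, and it did not pass the test (adjusted p = 0.472). None of its values stood at the shared lowest value, but the centre did move, since the nontargeting mean differed by -1.24 log2 units between lung and tumour. The difference was 0.17 with the values as deposited, 0.51 with the nontargeting median as centre and 0.20 with shared lowest values left out. Pik3cd was 1.13, 2.21 and 3.37 in tumour and 2.64, 3.72 and 4.44 in lung, with a difference of 1.35 ± 0.43 (adjusted p = 0.472). All 6 lung libraries lay above the tumour median and 3 above every tumour library. Of 60 genes for phosphoinositides, 7 lay higher and 1 lower at an unadjusted p under 0.05, beside 4.38% and 3.95% of all genes. The median was 0.04. Beside the pair above, the higher ones included Inpp4a, a phosphatase of phosphatidylinositol 3,4-bisphosphate (1.18), whereas Pik3ca, another catalytic subunit, was the lower one (-1.36).

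The other genes that the study names as enriched in this screen had smaller differences. Dgkz, which removes the second messenger diacylglycerol, was 1.11 to 1.98 in tumour and 1.49 to 3.11 in lung (difference 0.94 ± 0.42, adjusted p = 0.570). Within its list of 10 diacylglycerol kinases, 1 lay higher and 2 lower at an unadjusted p under 0.05 (median -0.32). The shares over all genes were 4.38% and 3.95%. B3gnt2, which extends poly-N-acetyllactosamine chains, was 1.43 to 2.25 in tumour and 1.34 to 3.84 in lung (difference 0.85 ± 0.46, adjusted p = 0.649). Elovl1, an elongase of very long-chain fatty acids, is reported by the study as enriched mainly in liver under anti-PD-1. That organ is not part of this comparison. Elovl1 was -0.73, -0.13 and 1.16 (lowest, median, highest) in tumour and -1.22, -0.00 and 0.46 in lung. Its difference of -0.16 ± 0.46 (SE; 95% interval -1.11 to 0.79, adjusted p = 0.959) was 0.59 and 0.16 within replicate numbers 1 and 2 and -1.23 within replicate number 3. An abundance 2-fold lower in lung therefore lies within the interval.

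Other genes stood in full or nearly full separation on the higher side. All 6 lung libraries lay above all 6 tumour libraries for 9 of 2078 genes (0.433%). Ddc, a decarboxylase of aromatic amino acids, was 0.58, 0.82 and 0.98 (lowest, median, highest) in tumour and 1.31, 2.33 and 2.64 in lung (difference 1.46 ± 0.40, adjusted p = 0.341). Car14, a membrane carbonic anhydrase, differed by 1.34 ± 0.41, and Stt3a, a catalytic subunit of the oligosaccharyltransferase, by 1.42 ± 0.44, each with an adjusted p of 0.472. Guides against Ddc and Car14 already stood above the nontargeting level at T0, at 0.69 and 0.74, and had 0 values at the shared lowest value in either organ. The nontargeting guides from which their levels are measured did have such values, and with these left out the differences were 0.24 for Ddc and 0.13 for Car14. Those without overlap also included, beside Pik3r1 and Pdss1, Shmt1 (1.24), Pla2g4f (0.86) and Slc6a19 (0.82), the last of which had an unadjusted p of 0.0519. Cops8, a subunit of the COP9 signalosome, differed by 1.58 ± 0.46, Dpm3, which anchors the dolichol-phosphate mannose synthase, by 1.37 ± 0.45, and Setd1b, a histone H3 lysine 4 methyltransferase, by 1.32 ± 0.42, all with an adjusted p of 0.472. With the values as deposited the differences were 0.34 for Cops8, 0.13 for Dpm3, 0.075 for Setd1b and 0.18 for Stt3a. Members of the dolichol and oligosaccharyltransferase list stood at both ends, with 4 of 35 higher and 4 lower and a median of 0.05. These counts are at an unadjusted p under 0.05, beside 4.38% and 3.95% of all genes.

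Guides against genes that every dividing cell needs lay close to the bottom in both organs, which leaves little room for a difference. Of the sgRNA values for 20 ribosomal protein genes, 80.3% stood at the shared lowest value in lung and 48.7% in tumour. Their median level was -5.16 in lung and -5.29 in tumour. Rpl9, a protein of the large ribosomal subunit, was -7.15, -6.39 and -5.31 (lowest, median, highest) in tumour and -6.44, -5.42 and -4.75 in lung, with a difference of 0.73 ± 0.45 (adjusted p = 0.686). For guides at the lowest value, the sign of a difference follows from the centring. Rps13 stood at the shared lowest value in 30 of 30 lung values and 28 of 30 tumour values, yet its difference was 1.01, because the nontargeting mean from which levels are measured was 6.35 in lung and 7.59 in tumour. Polr1d, a subunit shared by RNA polymerases I and III, differed by -0.59 ± 0.49 (adjusted p = 0.773), with 24 of 30 lung values and 8 of 30 tumour values at the shared lowest value. Of 26 RNA polymerase genes, 2 lay lower and 0 higher at an unadjusted p under 0.05 (median -0.09). The shares over all genes were 3.95% and 4.38%.

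The lists beside that of ether lipids had medians between -0.61 and 0.37. Over the 39 lists, 16 medians were below 0 and 23 above. Counts in this paragraph are of genes at an unadjusted p under 0.05, beside 3.95% lower and 4.38% higher over all genes. Sphingolipid genes had 4 of 32 lower and 1 higher (median -0.13), with Sphk2, a kinase that makes sphingosine 1-phosphate, at -1.66 (adjusted p = 0.481). Heme genes had 3 of 13 lower and 2 higher (median -0.14), and the lowest was Alad at -1.51, which catalyses an early step of heme synthesis. Vacuolar ATPase genes had 1 of 23 lower and 1 higher (median -0.31), glycolysis genes 1 of 34 lower and 1 higher (median 0.10), pyrimidine synthesis 0 of 15 in either direction (median 0.32), serine, folate and methionine genes 2 of 28 lower and 2 higher (median 0.27) and GPI anchor genes 0 of 25 lower and 3 higher (median 0.24). Genes for selectin ligands had 3 of 20 lower and 1 higher (median 0.28), with C1galt1c1 as the lowest. Cytochrome P450 genes, most of which T cells are not known to use, had 2 of 80 lower and 3 higher with a median of -0.01.

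Within each treatment the picture was as sparse, with 3 libraries against 3. Under IgG, limma called 0 genes in either direction, while 63 genes lay lower (3.03%) and 97 higher (4.67%) at an unadjusted p under 0.05. Under anti-PD-1 it again called 0, with 78 lower (3.75%) and 39 higher (1.88%). Rimklb differed by -3.22 under IgG and -1.16 under anti-PD-1, Ndufs3 by -3.15 and -1.10, and Pfkfb3 by -0.87 and -3.11. The interaction of organ and treatment called 0 genes, with 68 genes lower (3.27%) and 19 higher (0.914%) under anti-PD-1 at an unadjusted p under 0.05. Slc35a1 differed by -1.64 under IgG and -2.17 under anti-PD-1, and Pik3r1 by 1.92 and 0.91. A difference between the treatments could therefore not be shown for any gene. The largest interaction by unadjusted p, named after its value was seen, was that of Inpp5d, which encodes the phosphatase SHIP-1. Its lung minus tumour difference was 1.56 under IgG and -2.12 under anti-PD-1 (adjusted p of the interaction 0.943).

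The calls depended on how the lowest values and the centring were handled. When shared lowest values were left out of the means, 2 genes were called lower and 98 higher, and the difference of Slc35a1 turned to 0.96 (adjusted p = 0.689) and that of C1galt1c1 to 0.07. That setting removes 25 of 30 lung values of Slc35a1 and 3 of 30 tumour values, so it cannot show a loss that leaves a guide at the lowest value. When the nontargeting median replaced the mean as centre, 139 genes were called lower and 0 higher, and the median of all genes moved to -0.89. With a replicate block within treatment, chosen after seeing the data, 3 genes were called lower, namely Rimklb, Ndufs3 and C1galt1c1, each with a limma adjusted p of 0.0493. With the values as deposited, 907 were called lower and 0 higher, and the median of all genes moved to -1.23. Relative to the median of all genes, ether lipid genes stayed above it by 0.20 to 1.14 under the 7 settings for centring, summary and lowest values. The 0.20 was with shared lowest values left out, and with the values as deposited the list's own median was -0.18. The medians of all 39 lists lay below 0 under that setting. Msmo1, Ddc, Pik3r1 and Pik3cd kept a positive difference under each of the 27 settings tried, and none of the 4 was called under any of them. Their size did not hold, since with the values as deposited the differences were 0.51 for Msmo1, 0.22 for Ddc, 0.17 for Pik3r1 and 0.11 for Pik3cd.

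**Figure D5:**
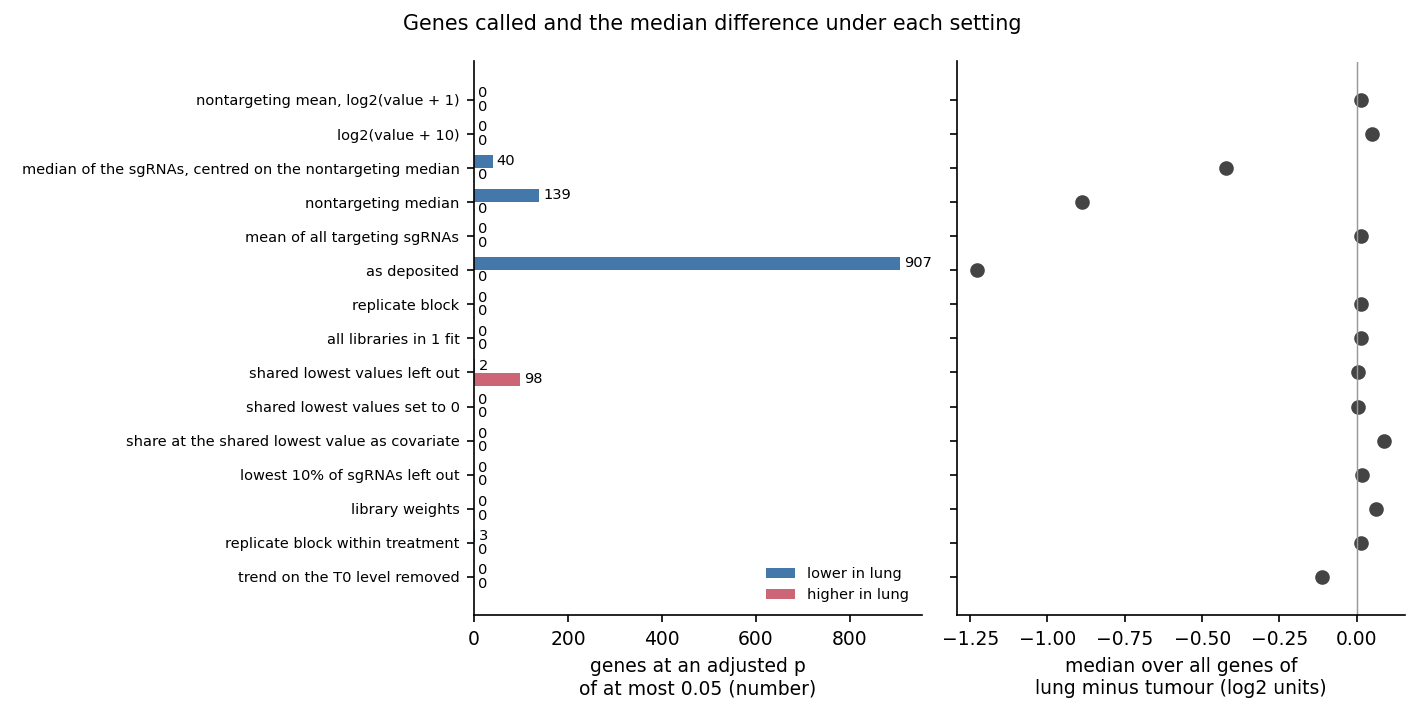
For each processing setting (vertical axis), the number of genes at an adjusted p of at most 0.05 (left, bars from 0) and the median over all genes of the lung minus tumour difference in log2 units (right) are plotted. The calls lower in lung number 0 in the main setting and 907 without further centring, and the median of all genes is then -1.23.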

How the data were processed

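Per the labels and the study's methods, the authors sequenced the integrated sgRNA in genomic DNA, counted reads per sgRNA with MAGeCK, scaled them to the nontargeting sgRNAs and removed batch effects between organs with ComBat, whose settings are not given in the sources used here. The deposited values are a signal per sgRNA and library, of which 93.0% are not whole numbers. The values therefore fit no count model, the depth behind them is unknown, and no counting interval is given. The summed signal was 1788300 to 3577400 in lung and 2275700 to 3392630 in primary tumour. Of the 43 samples, 2 carry no values and were not analysed here.

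Gene values were fitted with limma 3.58.1 in R 4.3.3 over the 12 libraries with organ and treatment as terms (prior degrees of freedom 13.15, prior variance 0.7011), and a gene was called where its p, adjusted over 2078 genes after Benjamini-Hochberg, did not exceed 0.05. The 2 treatments and the interaction were tested in a fit with 1 mean per group. An sgRNA was at the shared lowest value where it held the minimum over all libraries of its replicate number and at least 2 of them held that minimum (relative tolerance 1e-09). Library measures were compared by exact permutation tests with scipy 1.17.1 under Python 3.11.15, next to pandas 2.3.3, numpy 2.4.6 and, for the figures, matplotlib 3.10.9. The scripts were tested on simulated data, and the pass criteria covered only a simulation without lost guides, unlike the sparse lung libraries. The labels call the replicates biological, and per the methods the samples were sequenced in 3 independent runs, without saying whether the replicate number is the run. The p-values measure the spread between these libraries.

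The comparison, the genes and the 39 lists were chosen with earlier results of these data known, and 3 further lists were chosen after the values of this comparison were seen. Named genes are the 10 with the largest changes past the threshold in each direction, filled up by the smallest unadjusted p, the 7 that the study names for this screen (Pik3cd, Pik3r1, Dgkz, B3gnt2, Elovl1, Rpl9 and Polr1d), and the extremes of each list. Other genes were named after their values were seen, and some results are not reported here. The alternatives were another pseudocount, summary, centring and handling of lowest values, a filter on low sgRNAs, library weights, all libraries in 1 fit, a replicate block, each library left out in turn and other definitions of the lowest value. Chosen after seeing the data were a replicate block within treatment, 2 libraries left out together, removal of the trend on the T0 level and a signal of 5 or less as the definition of the lowest value.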

Additional observations from a re-analysis of the deposited data

Results flagged for a closer look

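Among 58 groups of 6 libraries, made of the library measures and the named genes in each organ, 2 held a library further from the others than Dixon's critical value for 6 allows. Chance alone flags about 1 in 20 such groups. The level of Hagh in lung was -3.60 in Lungs_PD1 replicate 3, and its gap to the next library was 0.704 of the range of the 6. The level of Ddc in lung was 1.31 in the same library, with a gap of 0.698 of the range. Hagh stayed below and Ddc above the tumour libraries in the other 5 lung libraries as well.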

How the results depend on the processing

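Calls of lower genes in lung were 40 with the median of the sgRNAs centred on the nontargeting median, 139 with the nontargeting median, 907 with the values as deposited and 2 with shared lowest values left out, which also called 98 higher genes. Under IgG these settings called 38, 0, 406 and 23 genes, and under anti-PD-1 17, 0, 21 and 44. The sgRNA median called 1 gene in the interaction. Leaving out the lowest 10% of sgRNAs called 1 gene under anti-PD-1 and 1 in the interaction. The median of all genes moved from 0.01 to -0.42 with the sgRNA median, -0.89 with the nontargeting median and -1.23 as deposited. Leaving out each library in turn gave 0 to 1 lower genes and 0 in the other comparisons. The 1 gene was C1galt1c1 (difference -2.37, adjusted p = 0.0229), called without Lungs_IgG replicate 2. The share of sgRNAs at the lowest value kept its direction, with a difference between 7.73 and 22.5 percentage points over its alternatives.

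With shared lowest values left out, the differences of Slc35a1 (0.96), C1galt1c1 (0.074), Ndufs3 (0.17), Cox7b (0.81), Ndufc2 (1.18), Elovl1 (0.29), Dgkz (-0.030) and Polr1d (0.31) turned sign. With the sgRNA median, those of Dgkz (-0.0091), Elovl1 (0.15) and Rpl9 (-0.62) did. With the nontargeting median, those of B3gnt2 (-0.051) and Rpl9 (-0.17) did, and as deposited, those of Dgkz (-0.30), B3gnt2 (-0.39) and Rpl9 (-0.51). With log2(value + 10), Polr1d was at 0.088. Elovl1 lay between -0.33 and 0.088 when each library was left out, at 0.037 without Lungs_PD1 replicate 2, 0.036 without Lungs_IgG replicate 3 and 0.088 without Tumor_PD1 replicate 3. The cause of these changes was not tested.

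The replicate block called 0 genes in every comparison. Deviations of libraries with the same number correlated at 0.04 to 0.18. No source says what a number shares, so the main test has no block. Yet 6 of 6 correlated best with their own number, a hint from the data and not from the design. The main test leaves this pairing unused. The replicate block within treatment, added after seeing the data, called 3 lower genes, namely Rimklb, Ndufs3 and C1galt1c1, 2 of them under IgG. Removing the trend on the T0 level, or leaving out Tumor_IgG replicate 3 and Lungs_IgG replicate 1 together, both also added later, called 0.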
